A study of Mus musculus with 6 samples.

Results

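The integrin and laminin subunit genes were examined, the receptors by which cells hold on to their matrix and the basement membrane proteins that some of them bind. Every array probe whose gene name in the files is that of an integrin α subunit, an integrin β subunit or a laminin α, β or γ chain was kept, which gave 81 of 41174 probes and 36 of 27376 gene names, namely 17 α and 8 β subunits of integrins and 11 laminin chains. Gene expression was measured on 6 Agilent 1-colour mouse arrays in embryonic fibroblasts (MEFs, cells grown out of mouse embryos) at day 8 of reprogramming. The cells had been infected with the factors that the labels abbreviate SKO and do not spell out, together with Gadd45a, with G39A, which the series calls a negative mutant of Gadd45a, or with Flag as the control. Each of these 3 groups has 2 arrays, numbered replicate 2 and replicate 1, and all 6 cultures are labelled as carrying SKO and grown in serum with LIF. The labels name no mouse strain, sex or promoter, and it is not stated whether replicates were separate cultures. The p-values below therefore measure the spread between arrays, which may be technical.

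An integrin is a pair of one α and one β subunit that spans the membrane, binds a matrix protein outside the cell and links to the cytoskeleton inside it. The pair of Itga6 and Itgb4 binds laminin and, in epithelia, anchors the cell through hemidesmosomes to keratin filaments, whereas the pairs of Itga1, Itga5, Itga8 and Itga11 with Itgb1 bind collagen or fibronectin and are characteristic of fibroblasts and other mesenchymal cells. A laminin is a trimer of an α, a β and a γ chain, and Lama3 and Lamb3 are known from the laminin that fastens stratified epithelia to their basement membrane. Reprogramming of fibroblasts is known to pass through a transition from mesenchymal to epithelial cells.

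The largest differences among these genes lay between the arrays of the same group with different replicate numbers. Lamb3 was among the genes that were far lower on the replicate 2 arrays, and Itga11 had the largest difference of those that were higher. Their promoters are shown because both hold the E-box CAGGTG, the letters to which repressors of epithelial genes such as Snai1 and Zeb1 are known to bind (read as CACCTG on the other strand). Each sequence is the 250 bases before the gene's start (RefSeq, build GRCm38.p6, plus strand), with the E-box in capitals, for Lamb3 at chr1:193301993-193302242 and for Itga11 at chr9:62677605-62677854.
Lamb3 promoter: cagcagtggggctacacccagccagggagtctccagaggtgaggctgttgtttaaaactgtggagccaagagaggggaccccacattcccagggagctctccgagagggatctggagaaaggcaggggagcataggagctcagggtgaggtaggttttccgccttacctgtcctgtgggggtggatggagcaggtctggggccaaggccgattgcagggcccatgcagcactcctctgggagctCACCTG
Itga11 promoter: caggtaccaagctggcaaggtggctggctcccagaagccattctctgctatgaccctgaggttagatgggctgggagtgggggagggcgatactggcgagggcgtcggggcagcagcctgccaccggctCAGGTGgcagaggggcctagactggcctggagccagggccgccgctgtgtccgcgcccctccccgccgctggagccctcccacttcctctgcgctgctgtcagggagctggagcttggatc
The first base of the E-box lies 6 bases before the start of Lamb3 and 121 bases before that of Itga11. Of 36 member genes 23 had a promoter in the RefSeq table. Within the table's windows of the same length, which run from 250 bases before to 50 bases after the start, 8 of 26 member promoters (30.8%) and 20.2% of all 32851 promoters held this E-box on either strand. The 8 genes were Itga9, Itga11, Itgb5, Itga3, Itgb6, Itgb8, Lama5 and Lamb3, of which the first 3 were higher on replicate 2 arrays, Itgb6 passed no test and the others were lower. The AP-1 letters TGANTCA were in 3 of 26 member promoters (11.5%), those of Itga3, Itga9 and Itgax, and in 7.81% of all promoters.

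The 3 laminin β chains are shown by their probes because they gave 3 different outcomes: Lamb1 was higher on the replicate 2 arrays, Lamb2 was modestly lower and Lamb3 was not well above background there. The probes are 60 bases long and lie, in the mouse build mm9 of the file headers, at chr12:32012684-32014030, chr9:108392189-108392248 and chr1:195167088-195169619, the first and the last of them across an intron.
Lamb1 probe: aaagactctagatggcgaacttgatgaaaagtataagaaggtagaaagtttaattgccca
Lamb2 probe: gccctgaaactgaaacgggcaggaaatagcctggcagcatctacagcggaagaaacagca
Lamb3 probe: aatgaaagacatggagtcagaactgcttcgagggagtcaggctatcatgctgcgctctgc
The longest run of bases shared by any 2 of these probes is 6, so the 3 chains were read by unrelated sequences.

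The 6 arrays fell apart by replicate number and not by group. Arrays that share a number had signal correlations of 0.987 to 0.992 across probes, and arrays that share a group 0.894 to 0.898. Pou5f1, the usual O of reprogramming mixtures, gave 4.22, 4.40 and 3.57 on the Gadd45a, G39A and Flag replicate 2 arrays, where it was not well above background, against 5153, 6363 and 3851 on the replicate 1 arrays. Should the O stand for a mouse Pou5f1 that this probe reads, the replicate 2 arrays would go against their label, and every direction below is that of arrays labelled SKO. The Sox2 probe gave 14.9, 14.8 and 21.9 on the replicate 2 arrays, only the last well above background. On the replicate 1 arrays it gave 8.57, 12.5 and 8.40, none well above background. The Klf4 probe was well above background on all 6 arrays, at 15458 to 19703. Whether these probes read introduced copies was not tested. All 3 replicate 2 arrays were hybridised on 1 slide and the replicate 1 arrays on 2 others, so slide and replicate number cannot be told apart. The G39A replicate 1 array lay on a different slide from the Gadd45a and Flag replicate 1 arrays, which shared 1 slide. Differences of G39A from the other groups among the replicate 1 arrays are therefore also differences between slides. Of the markers of fibroblasts, the labelled cell type, 14 of 14 were bright enough to be tested, with summed signals of 951759 to 985523 on the replicate 2 arrays and 660419 to 824186 on the replicate 1 arrays. Markers of simple epithelium summed to 1747 to 2819 on the replicate 2 arrays and to 5948 to 6868 on the replicate 1 arrays, and the defining markers Cdh1 and Epcam were not well above background on any replicate 2 array. In such bulk RNA, fewer cells of a type and less RNA per cell cannot be told apart.

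The comparison of the replicate numbers asks how far these adhesion genes differed between arrays of the same 3 groups. Relative to the replicate 1 arrays, the replicate 2 arrays had far less signal for the epithelial laminin chains and the hemidesmosome integrin, more for the collagen receptor subunits Itga1 and Itga11 and the fibronectin receptor subunits Itga5 and Itga8, and mixed values for the integrins known from leukocytes. Signals are processed spot intensities, differences are log2 values after each array's 75th percentile was subtracted, and a probe was tested if it was well above background on at least 2 of 6 arrays. Of the 81 probes 65 passed, covering 31 genes, while 12 were above background on no array and 4 on 1 array. The 5 genes with no tested probe were Itga2, Itga10, Itgae, Itgax and Lamc3. In the limma test 52 of the 65 probes (80.0%) passed an adjusted p of 0.05, 17 higher and 35 lower on the replicate 2 arrays, against 56.3% of all 26481 tested probes (31.7% higher and 24.6% lower). At least 2-fold differences were called for 41 of 65 (63.1%), 14 higher and 27 lower, against 23.5% of all tested probes. Taking 1 probe per gene, 27 of 31 genes were called, 11 higher and 16 lower. The replicate numbers did not overlap for 53 of 65 member probes (81.5%) and for 66.2% of all tested probes. The median difference was -0.67 over member probes and 0.09 over all tested probes. A probe that passed the filter only through the replicate number in which it was bright had to differ. Of the tested member probes, 5 (7.69%) were well above background on all 3 replicate 1 arrays and on none of replicate 2, against 2.68% of all tested probes, and 1 (1.54%) the other way round, against 2.01%.

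**Figure D1:**
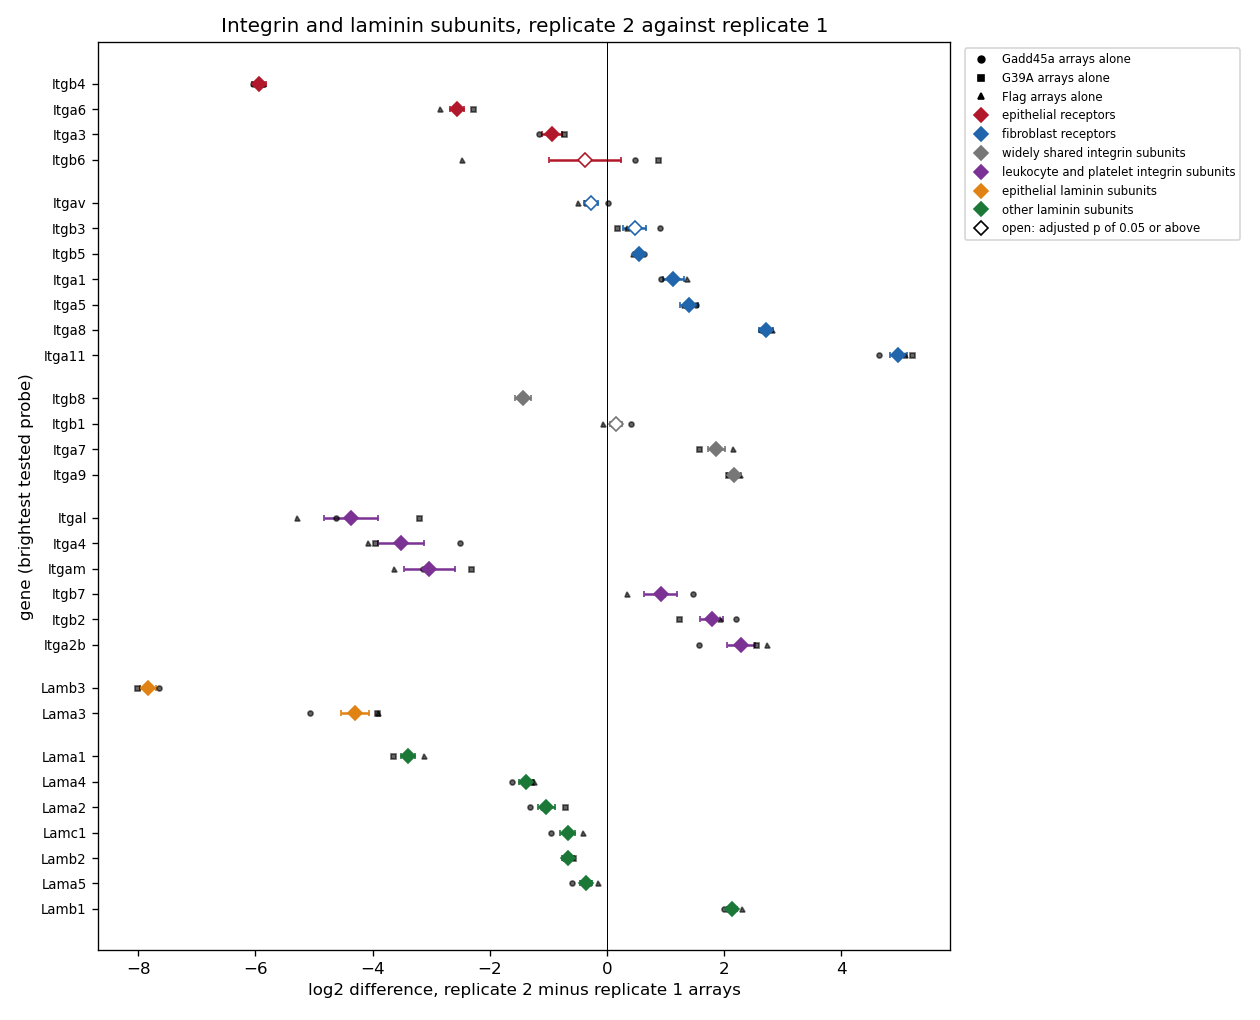
Log2 difference of the replicate 2 minus the replicate 1 arrays (x axis) for the brightest tested probe of each gene shown (y axis, coloured by gene list). Diamonds are the fitted differences with their standard errors, filled where the adjusted p was under 0.05, and small black symbols are the 3 groups alone; values run from -7.84 for Lamb3, which was not above background on replicate 2 arrays and has only a bound there, to 4.98 for Itga11.

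The epithelial laminin chains Lamb3 and Lama3 were far lower on the replicate 2 arrays. Below, the 3 values of a replicate number are those of its Gadd45a, G39A and Flag arrays. Lamb3, a β chain, had signals of 4.88, 5.04 and 6.01 on the replicate 2 arrays, none well above background, against 1115, 1593 and 1427 on the replicate 1 arrays. It was therefore at least 61.9-fold lower on the replicate 2 arrays (adjusted p = 1.30e-06). For such a bound, each dim array's signal was raised to the lowest signal of any probe well above background on it, where it was below that, before the means were compared. Lamb3, like every gene or probe below that is given as a bound, passed the filter only through the replicate number in which it was bright, so its p is no support for its direction. Lama3, an α chain, gave 14.4, 22.9 and 25.9 on the replicate 2 arrays, the first of them not well above background, and 551, 422 and 402 on the replicate 1 arrays. It differed by -4.30 ± 0.24 (SE), adjusted p = 3.61e-05, and the numbers did not overlap. A further Lama3 probe was not tested.

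The epithelial receptors followed, and the hemidesmosome subunit Itgb4 moved most. Itgb4, whose long cytoplasmic tail reaches the hemidesmosome plaque, gave 495, 651 and 677 on the replicate 2 arrays, against 37449, 47335 and 41167 on the replicate 1 arrays (chr11:115869557-115869616). This was a 61.5-fold lower level on the replicate 2 arrays (-5.94 ± 0.12 (SE), adjusted p = 2.31e-06), with all replicate 1 arrays far above all replicate 2 arrays. A further bright probe differed by -5.95, and a dim one was not above background on the replicate 2 arrays (at least 2.27-fold lower). Itga6, the α subunit that pairs with Itgb4 or Itgb1, gave 2110.2, 2437 and 1967 on the replicate 2 arrays, against 14091, 14422 and 14676 on the replicate 1 arrays (chr2:71695973-71696031). It was 5.9-fold lower on the replicate 2 arrays (-2.56 ± 0.12 (SE), adjusted p = 1.80e-05), and its 3 probes ranged from -2.56 to -1.73. Itga3, a laminin receptor of epithelia that pairs with Itgb1, gave 379, 351 and 355 on the replicate 2 arrays, against 961, 709 and 696 on the replicate 1 arrays (chr11:94905987-94906046). The difference was smaller (-0.94 ± 0.17 (SE), adjusted p = 0.00401), and the numbers did not overlap. Itgb6, an epithelial partner of Itgav that activates TGF-β, was near background, with 33.8, 39.1 and 11.6 on the replicate 2 arrays, against 27.6, 25.9 and 66.7 on the replicate 1 arrays. The Flag replicate 2 and Gadd45a replicate 1 signals were not well above background, the numbers overlapped, and the difference of -0.37 ± 0.61 (SE) did not pass the test (adjusted p = 0.637). In all, 3 of 4 epithelial receptor genes and 9 of their 10 tested probes were lower, with a median over probes of -2.10. The markers of simple epithelium were lower with them, 6 of 8 tested, with a median of -3.95, where 24.6% of all tested probes were lower. Of the 6, Cdh1, Epcam and Ocln passed the filter only through the replicate 1 arrays, so their calls are no support for the direction. Krt18 (0.35) and Krt19 (-0.02), well above background on all 6 arrays, were not called. Cldn4, Esrp1, Grhl2 and Rab25 were well above background on no array. Keratinocyte markers had 3 of 6 tested lower and 2 higher, with summed signals of 10178 to 11381 on the replicate 2 arrays and 47759 to 56989 on the replicate 1 arrays. Nearly all of that sum was Perp, at 11229, 10662 and 10045 on the replicate 2 arrays, against 47209.7, 56524 and 52917 on the replicate 1 arrays. The 2 higher keratinocyte markers, Krt15 and Trp63, passed the filter only through the replicate 2 arrays. Krt6a, among the 3 lower, passed it only through the replicate 1 arrays. The calls of Krt15, Trp63 and Krt6a are therefore no support for the direction. Mesothelial markers had 2 of 5 tested lower and 2 higher, with sums of 6598 to 12610.1 on the replicate 2 arrays and 114742 to 124067 on the replicate 1 arrays, and this sum was mostly Msln, at 11187, 6240.3 and 4991 on the replicate 2 arrays, against 119686, 121975 and 112938 on the replicate 1 arrays. Upk3b and Wt1 were higher (1.19 for Wt1). The part of these markers in the result was not tested.

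**Figure D2:**
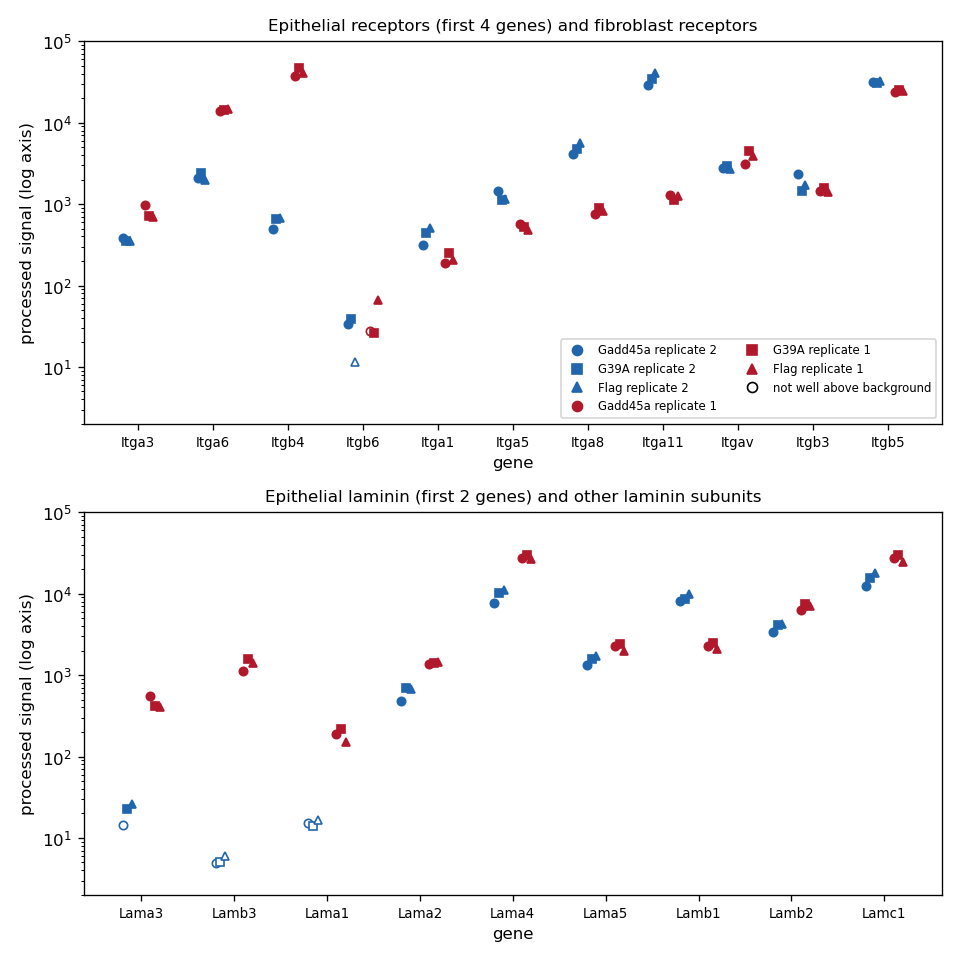
Processed signal on each of 6 arrays (y axis, log scale) for the epithelial and fibroblast receptors (upper panel) and laminin chains (lower panel), replicate 2 in blue left of replicate 1 in red. Circles, squares and triangles are Gadd45a, G39A and Flag, and open symbols were not well above background; Itgb4 lies at 495 to 677 on the replicate 2 arrays and at 37449 to 47335 on the replicate 1 arrays, and Itga11 the other way round.

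The fibroblast receptors were higher or little different on the replicate 2 arrays. Itga11, a receptor for fibrillar collagen, gave 28748, 34134 and 40725 on the replicate 2 arrays, against 1306, 1126 and 1242 on the replicate 1 arrays (chr9:62631667-62631726). This 31.6-fold higher level (4.98 ± 0.15 (SE), adjusted p = 5.05e-06) was present in each group, at 4.65 in Gadd45a, 5.21 in G39A and 5.08 in Flag. Itga8, which binds nephronectin and fibronectin, gave 4076, 4702 and 5575 on the replicate 2 arrays, against 748, 892 and 813 on the replicate 1 arrays (chr2:12028462-12028521), a difference of 2.72 ± 0.11 (SE), adjusted p = 1.30e-05. Its other bright probe differed by 2.77, and a dim one was above background only on the replicate 2 arrays (at least 4.14-fold higher). Itga5, the α subunit of the classical fibronectin receptor, gave 1447, 1118 and 1152 on the replicate 2 arrays, against 574, 524 and 477 on the replicate 1 arrays (chr15:103175022-103175081), a difference of 1.41 ± 0.15 (SE), adjusted p = 0.000506. Itga1, a collagen receptor, gave 311, 448 and 512 on the replicate 2 arrays, against 187, 253 and 205 on the replicate 1 arrays (chr13:115756765-115758419). All replicate 2 arrays were above all replicate 1 arrays (1.13 ± 0.18 (SE), adjusted p = 0.00253), and of its 4 tested probes, which ranged from 0.45 to 1.29, 2 passed the test.

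The Itgav partners differed less. Itgb5, a vitronectin receptor subunit, gave 31753, 30552 and 32603 on the replicate 2 arrays, against 23480.3, 25423 and 24710.2 on the replicate 1 arrays (chr16:33949123-33949182). Its numbers did not overlap, and the difference was small but passed the test (0.54 ± 0.08 (SE), adjusted p = 0.00201). Itgb3, which with Itgav binds vitronectin and fibronectin, gave 2352, 1445 and 1718 on the replicate 2 arrays, against 1433, 1564 and 1394 on the replicate 1 arrays, with the Gadd45a replicate 2 array highest. The signals overlapped, but the values after subtraction of each array's 75th percentile did not. Its difference was 0.48 ± 0.20 (SE, adjusted p = 0.0844), and it passed without the G39A replicate 2 array (0.64, adjusted p = 0.0376). Itgav itself gave 2801, 2922 and 2678 on the replicate 2 arrays, against 3148, 4515 and 3904 on the replicate 1 arrays, which overlapped once each array's 75th percentile had been subtracted (-0.27 ± 0.13 (SE), adjusted p = 0.114). It passed without the Gadd45a replicate 1 array (-0.39, adjusted p = 0.0231), and all 6 of its probes had negative values, 2 of them past the threshold. In all, 5 of 7 fibroblast receptor genes were higher and none lower, although Itgav was called lower with quantile normalization (-0.36, adjusted p = 0.0481), with normexp (-0.32, 0.0344) and in the deposited value table (-0.37, 0.0448). Of their 18 tested probes 8 were higher and 2 lower, with a median of 0.49. The share of these probes called, 55.6%, lies near the 56.3% called over all tested probes, of which 31.7% were higher and 24.6% lower. Fibroblast markers were higher with these receptor genes, 11 of 14 tested and none lower, with a median of 1.67, where 31.7% of all tested probes were higher. Of the muscle markers, such as smooth muscle actin, 5 of 5 tested were higher too. Their summed signals were 378821 to 396534 on the replicate 2 arrays and 75864 to 77031 on the replicate 1 arrays. The muscle factors Myod1, Myog and Myf5 were well above background on no array, and the part of these markers in the result was not tested.

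Set against each other, the epithelial receptor probes differed by a median of -2.10 and the fibroblast receptor probes by 0.49, a gap of -2.59. The gap was -2.91 over the Gadd45a arrays, -2.53 over the G39A arrays and -2.94 over the Flag arrays, so over probes it was of like size in each of the 3 groups. Taking 1 probe per gene, the gap was -2.78, -2.61 and -3.98 in the same order, and so larger over the Flag arrays. With normexp background correction, which adds an offset of 50 to every signal and so compresses dim probes, the gap over probes was -1.33. This gap is a description of chosen lists, with no test.

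Among the integrin subunits shared by many tissues, the brightest probe of the common β subunit Itgb1 did not pass the test, while its α partners Itga7 and Itga9 were higher. Itgb1 gave 11154, 10149.9 and 9705 on the replicate 2 arrays, against 9549.5, 11332 and 10456 on the replicate 1 arrays (chr8:131256492-131256551), which overlapped (0.16 ± 0.11 (SE), adjusted p = 0.24). A further Itgb1 probe differed by 0.43 and passed the test narrowly (adjusted p = 0.0465). Itga9, which binds tenascin and Vcam1, gave 1571, 1805 and 2093 on the replicate 2 arrays, against 401, 521 and 449.6 on the replicate 1 arrays (chr9:118807900-118807959). Its level was 4.5-fold higher on the replicate 2 arrays (2.17 ± 0.12 (SE), adjusted p = 3.08e-05). Itga7, a laminin receptor of muscle, gave 271, 251 and 267 on the replicate 2 arrays, against 84.2, 103 and 61.8 on the replicate 1 arrays (chr10:128394990-128395048), and again the numbers did not overlap (1.87 ± 0.15 (SE), adjusted p = 0.000154). Itgb8, which with Itgav activates latent TGF-β, gave 43.3, 55.8 and 57.9 on the replicate 2 arrays, against 133, 185 and 159.8 on the replicate 1 arrays (chr12:120396968-120397027). This probe was lower on the replicate 2 arrays (-1.43 ± 0.14 (SE), adjusted p = 0.000313), but its other tested probes, at -0.09 and -0.55, did not pass.

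The integrin subunits known from leukocytes and platelets split, with 3 genes higher and 3 lower among 6 tested, of which Itga2b and Itgal passed the filter only through the replicate number in which they were bright. Itga4, which pairs with Itgb1 or Itgb7 and binds Vcam1 and fibronectin, gave 1160.4, 469 and 462 on the replicate 2 arrays, against 7572, 8890.0 and 8078 on the replicate 1 arrays (chr2:79170690-79170749). All replicate 1 arrays were well above all replicate 2 arrays (-3.52 ± 0.39 (SE), adjusted p = 0.000554), the Gadd45a array was the highest of the replicate 2 arrays, and 5 of 6 probes were called lower, with a range from -3.86 to -0.83. Itgam, the α subunit of the macrophage receptor for complement, gave 21.6, 57.4 and 19.2 on the replicate 2 arrays, against 217, 348 and 246 on the replicate 1 arrays (chr7:135261475-135261534, -3.03 ± 0.43 (SE), adjusted p = 0.00165). Its other probe was not well above background on any replicate 2 array and was at least 14.9-fold lower there. Itgal, its counterpart in lymphocytes, gave 4.14, 12.9 and 4.22 on the replicate 2 arrays, none well above background, and 116, 145 and 170.3 on the replicate 1 arrays, at least 6.45-fold lower on the replicate 2 arrays (adjusted p = 0.000486). Its other tested probe, well above background on no replicate 2 array and on 2 of 3 replicate 1 arrays, was at least 2.2-fold lower there.

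Itgb2, the β subunit with which Itgal and Itgam pair, ran the opposite way to them. Its signals were low, 60.7, 53.4 and 58.9 on the replicate 2 arrays, against 15.0, 27.6 and 16.0 on the replicate 1 arrays, of which only the G39A array was well above background. The fitted difference of 1.79 ± 0.20 (SE), adjusted p = 0.00061, therefore rests in part on 2 arrays that did not measure it. Itgb7, the other partner of Itga4, gave 346, 237 and 169 on the replicate 2 arrays, against 142, 151 and 138 on the replicate 1 arrays (chr15:102046450-102046509). It was higher on the replicate 2 arrays (0.92 ± 0.27 (SE), adjusted p = 0.0303), but the call ended without any of 4 arrays: Flag, Gadd45a or G39A replicate 1 (adjusted p from 0.0702 to 0.0789) or G39A replicate 2 (0.0729), and with no filter on dim probes (0.0589). Itga2b, the α subunit of the platelet fibrinogen receptor, gave 20.95, 24.9 and 28.9 on the replicate 2 arrays, the first not well above background, and was not above background on replicate 1 arrays, a difference of at least 1.14-fold (adjusted p = 0.000449). Megakaryocyte and platelet markers were called higher with it, 3 of 3 tested, where 31.7% of all tested probes were higher. Of the 3, Pf4 and Ppbp passed the filter only through the replicate 2 arrays. Their calls, like that of Itga2b, are therefore no support for the direction. Gp1bb differed by 0.44. The sums were 386 to 1458 on the replicate 2 arrays and 71.3 to 85.9 on the replicate 1 arrays. On the replicate 2 arrays they came mostly from Ppbp, at 1375, 400.1 and 259.5, while Gp9 was well above background on no array. Ptprc, the defining leukocyte marker, was not well above background on any array, whereas 7 of 10 tested leukocyte markers were higher and 2 lower, with summed signals of 5597 to 9565 on the replicate 2 arrays and 4953 to 6340 on the replicate 1 arrays. Of the 7, Emr1 and Cd52 passed the filter only through the replicate 2 arrays, so their calls are no support for the direction. Laptm5, a leukocyte marker, ran with Itga4, Itgal and Itgam, at 39.5, 44.2 and 102 on the replicate 2 arrays, against 4273, 3389.7 and 2971 on the replicate 1 arrays (-5.79 ± 0.36 (SE), adjusted p = 5.62e-05). The part of these markers in the result was not tested.

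The other laminin chains were lower on the replicate 2 arrays with 1 exception. Over all laminin genes 9 of 10 tested were therefore lower and 1 higher, where 24.6% of all tested probes were lower. Among the 9, Lamb3 and Lama1 passed the filter only through the replicate 1 arrays, so their calls are no support for the direction. The exception was Lamb1, the β chain of most non-epithelial laminins, at 8027, 8672 and 9871 on the replicate 2 arrays, against 2279, 2483 and 2062 on the replicate 1 arrays. It was 4.39-fold higher on the replicate 2 arrays (2.13 ± 0.09 (SE), adjusted p = 1.13e-05), with no overlap. Lamb2, the β chain of laminins at the neuromuscular synapse and in the glomerulus, gave 3365, 4086 and 4202 on the replicate 2 arrays, against 6331, 7390.2 and 7104 on the replicate 1 arrays (-0.67 ± 0.10 (SE), adjusted p = 0.00224), so the pair of β chains moved in opposite directions. Lamc1, the γ chain of most laminins, gave 12508, 15656 and 17981 on the replicate 2 arrays, against 27526, 30053 and 24688 on the replicate 1 arrays (chr1:155066154-155066213, -0.67 ± 0.12 (SE), adjusted p = 0.00479).

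The α chains were lower to different degrees. Lama1, a chain of embryonic basement membranes, gave 15.5, 14.0 and 16.6 on the replicate 2 arrays, none well above background, and 188, 216 and 151 on the replicate 1 arrays, at least 8.31-fold lower on the replicate 2 arrays (adjusted p = 7.47e-06). Lama4, a chain of endothelial and mesenchymal laminins, gave 7690.2, 10052 and 10988 on the replicate 2 arrays, against 27012, 29961 and 26834 on the replicate 1 arrays (chr10:38825794-38825853). It was 2.61-fold lower on the replicate 2 arrays (-1.38 ± 0.12 (SE), adjusted p = 0.000223), and its 4 probes ranged from -1.98 to -1.26. Lama2, the chain of muscle basement membrane, gave 487, 699 and 666 on the replicate 2 arrays, against 1374, 1397 and 1457 on the replicate 1 arrays (chr10:26704229-26704288, -1.03 ± 0.14 (SE), adjusted p = 0.00151), with no overlap. Lama5, a chain of many adult basement membranes, gave 1328, 1591 and 1705 on the replicate 2 arrays, against 2285, 2413 and 1951 on the replicate 1 arrays. The difference was the smallest among called genes (-0.35 ± 0.10 (SE), adjusted p = 0.027), and the call ended without the Gadd45a or G39A array of either number (adjusted p from 0.0619 to 0.0804) and with the group as a block (0.0719) or no filter (0.0696).

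Genes that work with these subunits were set beside them, from lists of known partners. Of the hemidesmosome and tetraspanin partners, 4 of 7 tested were lower on the replicate 2 arrays and 1 higher, with a median of -1.04. Among the lower were Cd151 and Cd9, tetraspanins that bind laminin receptors (-1.47 and -1.33), and the hemidesmosome proteins Col17a1 (-1.22) and Dst (-1.04). Col17a1 was dim on the replicate 2 arrays, at 39.9, 30.1 and 26.7. Plec, of the same list, was bright and was not called (0.16, adjusted p = 0.178). Of the integrin ligands 11 of 17 tested were higher and 4 lower, with a median of 0.57. The fibronectin gene Fn1, ligand of Itga5, was higher on the replicate 2 arrays with 19408, 14802 and 15317, against 2704, 2337 and 2336 on the replicate 1 arrays, as was the fibrillar collagen Col3a1 (3.01). Npnt, nephronectin, ran opposite to its receptor subunit Itga8, with 118, 99.9 and 146 on the replicate 2 arrays, against 1406, 1389.7 and 1008 on the replicate 1 arrays (-3.21 ± 0.17 (SE), adjusted p = 3.09e-05). Of the basement membrane partners 5 of 13 were higher and 3 lower, with a median of 0.13. The largest differences each way were those of Ntn4 (-4.29) and Col7a1 (2.18). The called partners also included Nid1 (0.82), the nidogen that crosslinks laminin and collagen, its relative Nid2 (-1.47), and Bcam (-1.55), a receptor for Lama5. Of the cytoplasmic adaptors 9 of 21 tested were higher and 3 lower, with a median of 0.26, among them Vcl (1.29) and Actn1 (1.35), which tie integrins to actin, and Parvb (-1.40). Over all tested probes 31.7% were higher, 24.6% lower and 56.3% called, so the 8 of 13 basement membrane partners and 12 of 21 adaptors that were called lie near that background.

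**Figure D3:**
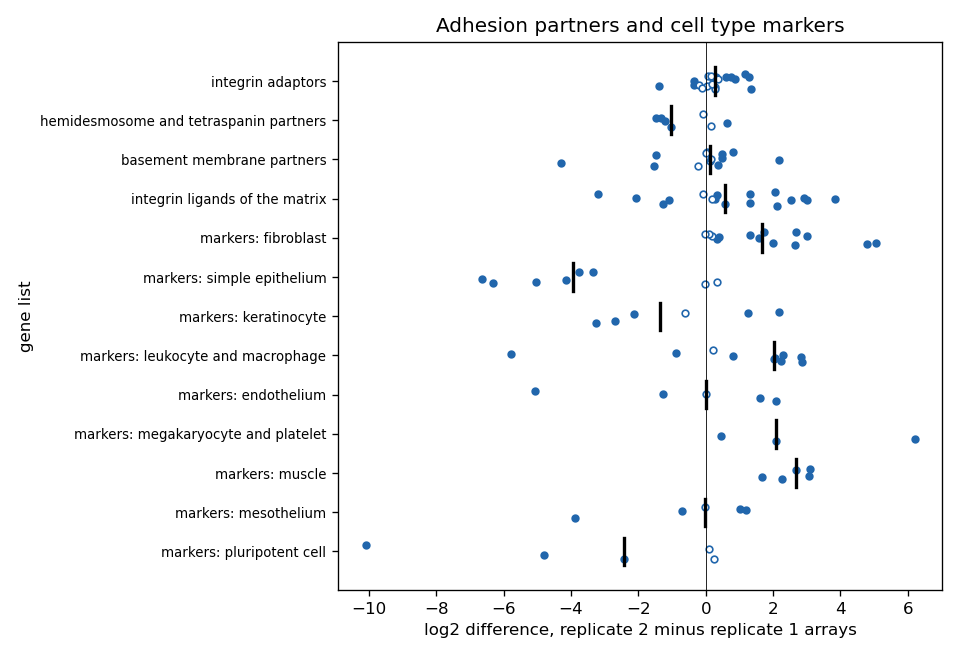
Log2 difference of the replicate 2 minus the replicate 1 arrays (x axis) for the tested genes of each list of adhesion partners and cell type markers (y axis). Each point is a gene, filled where the adjusted p was under 0.05, and the black bar is the list's median, from -3.95 for simple epithelium to 2.69 for muscle.

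The group comparisons ask whether Gadd45a, or its mutant, altered these genes during reprogramming. None of the 65 tested integrin and laminin probes was called in any of them, and differences between groups were small beside those between replicate numbers. For Gadd45a against Flag limma called 0 of 65 member probes and 0.0% of all tested probes, for G39A against Flag 0 and 0.0%, and for Gadd45a against G39A 0 and 0.0%. No member probe reached an unadjusted p of 0.05 in the model without a block. Blocking on the replicate number left 0 calls, and unadjusted p-values under 0.05 were reached by 8 member probes (12.3%) for Gadd45a against Flag, 3 (4.62%) for G39A against Flag and 6 (9.23%) for Gadd45a against G39A. The shares over all tested probes were 7.22%, 2.77% and 7.68%. The lowest adjusted p of a member with the block was 0.648, 0.997 and 0.647 in these comparisons. The median standard error of a difference over all tested probes was 0.35 without and 0.13 with the block. The Gadd45a probe itself was not higher on Gadd45a arrays, with 1870.1, 2147 and 2309 on the replicate 2 arrays, against 560.1, 1395 and 1017 on the replicate 1 arrays, in the order Gadd45a, G39A and Flag. Whether it reads the introduced copy was not tested.

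Within a replicate number, no member differed at least 2-fold in the same direction in both numbers in any of the 3 comparisons. Such probes were rare over all tested probes as well, so their absence among 65 probes says little about the members. The shares of all tested probes that were higher and lower in both were 0.2% and 0.366% for Gadd45a against Flag. They were 0.0529% and 0.408% for G39A against Flag, and 0.366% and 0.162% for Gadd45a against G39A. Differences had the same sign in both numbers for 37 of 65 probes (56.9%) for Gadd45a against Flag, where all tested probes gave 55.4%. The counts were 30 (46.2%, against 47.6%) for G39A against Flag and 33 (50.8%, against 59.0%) for Gadd45a against G39A. The Flag arrays enter 2 of these comparisons, and among the replicate 1 arrays those with G39A also compare slides. The epithelial receptor probes had a median difference for Gadd45a minus Flag of 0.16 among replicate 2 and -0.06 among replicate 1 arrays, and the fibroblast receptor probes of -0.16 and -0.14. For G39A minus Flag the medians were 0.02 and -0.08 for the epithelial and -0.09 and -0.07 for the fibroblast receptor probes. For Gadd45a minus G39A they were -0.02 and 0.17 for the epithelial and -0.07 and -0.09 for the fibroblast receptor probes.

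**Figure D4:**
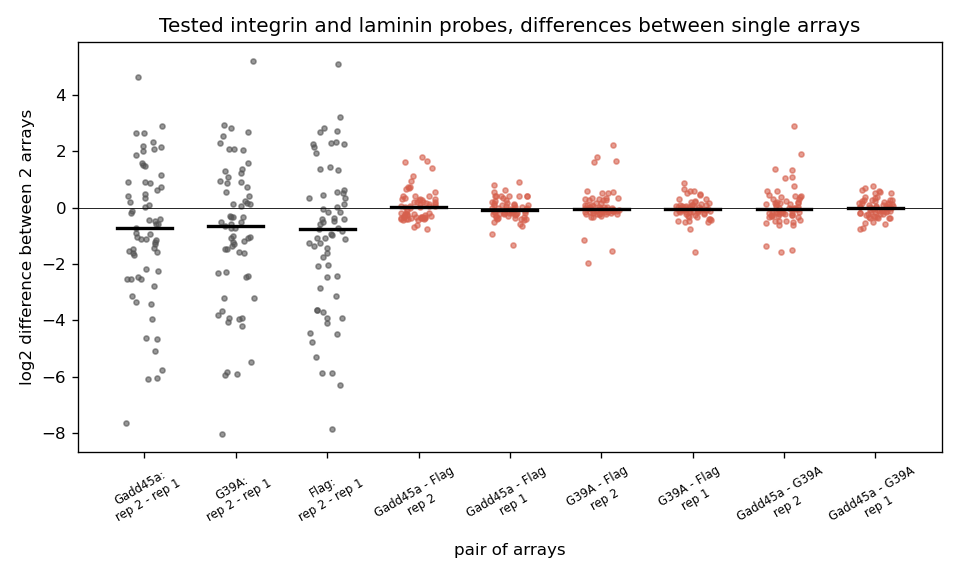
Log2 differences of the 65 tested member probes (points) between pairs of single arrays (x axis), with the median as a black bar. The first 3 columns set replicate 2 against replicate 1 within each group and reach from -8.02 to 5.21, while the 6 columns that set groups against each other within a number lie between -1.98 and 2.91.

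Single members show how the groups differed within a number. Itga4 on the replicate 2 arrays was higher in Gadd45a (1160.4 and 54.0 on its 2 brightest probes) than in G39A (469 and 26.4) and Flag (462 and 18.4), by 1.43 over Flag for the brightest. On the replicate 1 arrays the same difference was -0.14. Its partner Itgb7 was also highest on the Gadd45a array among the replicate 2 arrays, by 1.13 over Flag, and differed by -0.01 on the replicate 1 arrays. Neither difference was called, and each rests on 1 Gadd45a array. For Itga4 the adjusted p was 0.779 with the replicate block, where its SE was 0.44. Without the block its SE was 2.12, and the adjusted p was 0.999975 for both genes. With the block, the lowest adjusted p among the leukocyte and platelet integrin genes was 0.733 for Gadd45a against Flag. Itga5 was higher in Gadd45a than in Flag by 0.43 on the replicate 2 and 0.22 on the replicate 1 arrays. Itgb8 was lower in Gadd45a than in Flag by values of -0.32 and -0.31, but its dimmer probe gave 0.73 and 0.56. The laminin receptor subunits Itgb4 (-0.36 and -0.18) and Itga6 (0.20 and -0.10) and the collagen receptor Itga11 (-0.40 and 0.03) differed little between Gadd45a and Flag beside their differences between the replicate numbers. None of these passed the test with the replicate block.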

How the data were processed

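Total RNA was labelled with Cy3 and hybridised to 1-colour arrays, 6 in all, per the labels' protocols. The authors made the deposited spot intensity values with Agilent Feature Extraction 10.7, per the submitters' processing notes, and they were background-subtracted within the array, per the file headers, but not normalized between arrays. The value table deposited by the authors is on a log2 scale, each column following its own array (lowest r 0.9989, highest r with another array 0.992), with equal column medians of 6.17. Its background step is not given in the sources used here, and it served as an alternative.

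Spots marked as outliers and control spots were left out, spots of a probe were averaged, and each array's 75th percentile was subtracted from log2 values. The percentiles were signals of 750 to 803 on the replicate 2 arrays and 830 to 953 on the replicate 1 arrays, between 57.0% and 62.9% of spots were well above background, and 0 spots were saturated. Of 41174 probes 26481 were tested, and 69 had no unmarked spot on some array and were left out. limma 3.58 in R 4.3 (lmFit, eBayes) compared the replicate numbers (4 residual degrees of freedom) and the groups (3, and 2 with the replicate block), with Benjamini-Hochberg adjustment over all tested probes. Calls were made at an adjusted p of 0.05. The test was tried on simulated data first.

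Each gene is described by its tested probe of highest mean signal, and other probes are named where they differ. Per-array values are given for called members, except 1 that is counted among the members but not reported here. Of the partner lists, up to 4 called members each way may be named. Plec, Perp, Msln, Ppbp, Pf4, Gp1bb, Krt18, Krt19, Dppa5a, Sall4, Emr1, Cd52, Krt15, Krt6a and the marker genes set beside them were named after their values were seen. Gene names are those in the files, and all 36 are RefSeq symbols, while 54 of 81 probe accessions lead to the same symbol. The member genes and all lists were chosen with earlier results of these data known.

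Deviations of same-numbered arrays from their group means correlated at 0.906 to 0.907 for every pair of groups, so the numbers, which come from the labels, were taken to pair the samples. The alternatives were other normalizations, filters, probes per gene, slide and replicate blocks, and leaving out each array. The number of arrays limits the precision.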

Additional observations from a re-analysis of the deposited data

Results flagged for a closer look

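Itgb6 had opposite signs in the replicate numbers for both groups set against Flag. Gadd45a minus Flag was 1.63 (log2) among the replicate 2 arrays and -1.32 among the replicate 1 arrays, and G39A minus Flag was 1.78 and -1.57. The difference between the numbers was not tested, both comparisons share the same Flag arrays, and the signals, from 11.6 to 66.7, lay close to background.

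Some probes that were left out of the tests were well above background on 1 array. They were the probe of Itga10 on the G39A replicate 1 array (signal 26.6), and, all on the Flag replicate 2 array, a probe of Itgae (20.3), a further probe of Itgb1 (21.3) and a further probe of Lama3 (42.7). For the first of these arrays 21.5 was the lowest signal of any probe well above background, and for the Flag array it was 17.1.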

How the results depend on the processing

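Of 65 tested member probes 52 were called between the replicate numbers, and 27 of 31 with 1 probe per gene, where fewer were tested. Under the other settings the count was 36 to 52, and 48 to 50 when 1 array was left out. The gap between epithelial and fibroblast receptors, -2.59, was -1.33 with normexp, which compresses dim signals by its offset, -1.85 with no filter, which adds dim probes, and -2.88 with 1 probe per gene. It was -2.67 to -2.59 when 1 array was left out. Itgb6, never called, changed sign to 0.11 without the Flag replicate 1 array and 0.20 without the Flag replicate 2 array, within a range of -0.69 to 0.20 over the arrays left out, and the cause was not tested. In 427 pairs of a gene and a setting, 408 kept direction and side of the threshold, 11 lost the call (Itgb7 and Lama5), 6 gained it (Itgav and Itgb3) and 2 reversed, and 26 of 31 genes kept both throughout.

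The group comparisons called 0 member probes in every setting run, with the replicate block too, where the lowest adjusted p of a member was 0.648 for Gadd45a against Flag, 0.997 for G39A against Flag and 0.647 for Gadd45a against G39A. The lowest in any setting was 0.314 for Gadd45a against Flag, with slide as a random block. Dim probes of Itgb6, Itga2b and Itgb2 limit what can be said of those genes.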

Other observations

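Other marker lists also differed between the replicate numbers. Among the keratinocyte markers, Krt14, a keratin of basal epithelial cells, gave 34.2, 74.1 and 58.2 on the Gadd45a, G39A and Flag replicate 2 arrays, against 446.9, 375 and 339 on the replicate 1 arrays. Trp63, a regulator of stratified epithelia, ran the other way, at least 1.55-fold higher on the replicate 2 arrays. Of the pluripotency genes 3 of 5 tested were lower and none higher, where 24.6% of all tested probes were lower. Each of the 3, Pou5f1, Nanog and Zfp42, was well above background on no replicate 2 array. They passed the filter only through the replicate 1 arrays, so their calls are no support for the direction. Dppa5a (0.24) and Sall4 (0.09) were not called. Endothelial markers had 2 of 5 tested higher and 2 lower, and Pecam1 and Cdh5, which define that cell type, were well above background on no array.

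Some members are neighbours in the genome. The probes of Itgal and Itgam lie 783 kb apart on chromosome 7, with 35 protein-coding genes between them, and both were lower on the replicate 2 arrays. Itgax, 32.6 kb from Itgam, was not above background on any array. Itga2, 130.8 kb from Itga1 on chromosome 13, was not above background on any array either, while Itga1 was higher on the replicate 2 arrays.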
